A study of Mus musculus with 12 samples.

Results

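The star-named microRNAs (miRNAs) of mouse T lymphocyte development were taken as every name ending in an asterisk in the tables of mature miRNAs, which gave 98 of the 548 names. By the older naming rule, the asterisk marks the arm of a hairpin that was found less often when the hairpin was first described, the passenger strand. Small RNA had been sequenced from 11 sorted blood-cell populations of C57BL/6 mice and from mouse embryonic fibroblasts (MEF), with 1 library per population and no genetic change or treatment in any of them. From bone marrow came LSK (Lineage- Sca+ cKit+), MPP (the CD135+ CD106+ fraction of it), LMPP (the CD135+ CD106- fraction) and ProB (B220+ IgM- CD43hi). From thymus came the CD4- CD8- CD3- CD90+ stages DN1 (CD44+ CD25-), DN2 (CD44+ CD25+) and DN3 (CD44- CD25+), then DN4 (CD3lo CD44- CD25-), DP (CD4+ CD8+ CD3lo CD90+), CD4SP (CD4+ CD8- CD3hi CD90+ CD24lo) and CD8SP (CD4- CD8+ CD3hi CD90+ CD24lo). MEF came from E14.5 embryos. With 1 library per population no difference has a replicate check. All intervals are exact 95% intervals that cover counting error only, since PCR reads are not independent molecules.

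A miRNA gene is transcribed as a long RNA that folds into a hairpin. Drosha cuts the hairpin out in the nucleus and Dicer removes its loop in the cytoplasm, which leaves a short duplex of the 5p and the 3p arm. An Argonaute protein keeps one strand as the guide, which pairs with messenger RNAs mainly through its seed, bases 2 to 8, and the other strand is usually lost. The strand whose 5′ end is less firmly paired, and one that begins with U or A, is favoured. Both arms of a hairpin are thus made together, and their levels in a library differ by how long each is kept and by how well each is captured.

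The sequences below are those of the star strands that held most reads or whose share of their hairpin differed most between libraries, with the unstarred arm where both are needed for the comparison. They are RefSeq mature sequences on GRCm38.p6, written 5′ to 3′, with the seed (bases 2 to 8) in capitals.
miR-17*: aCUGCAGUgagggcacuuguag
miR-20b*: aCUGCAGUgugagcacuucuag
miR-17: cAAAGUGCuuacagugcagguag
miR-20b: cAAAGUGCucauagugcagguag
miR-27a*: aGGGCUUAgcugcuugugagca
miR-27a: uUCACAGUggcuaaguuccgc
miR-21*: cAACAGCAgucgaugggcuguc
miR-21: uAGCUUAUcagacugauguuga
miR-33*: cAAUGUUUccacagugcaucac
miR-33: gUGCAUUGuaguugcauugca
miR-140*: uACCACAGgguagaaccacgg
miR-181a-1*: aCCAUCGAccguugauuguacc
miR-106b*: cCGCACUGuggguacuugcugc
miR-17* and miR-20b* share the seed CUGCAGU, as their unstarred arms share AAAGUGC. The seed UAUACAA is shared by 4 star strands, let-7a*, let-7b*, let-7c-2* and let-7f*, and UGGGAGA by miR-30c-1* and miR-30c-2*. The whole sequence is the same in let-7a* and let-7c-2*. RefSeq held a mature sequence for 85 of the 98 star names.

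On GRCm38.p6 the miR-17 hairpin lies at chr14:115043671-115043754 (+) in an exon of the lincRNA Mir17hg, and the miR-20b hairpin at chrX:52742113-52742192 (-), where GENCODE annotates no other gene on that strand. The miR-106b hairpin at chr5:138165737-138165818 (-) is in an intron of Mcm7, a component of the replicative helicase, and the miR-93 hairpin at chr5:138165523-138165610 (-) overlaps an exon of an Mcm7 transcript. The miR-21 hairpin at chr11:86584067-86584158 (-) overlaps an exon of a Vmp1 transcript. The miR-33 hairpin at chr15:82198122-82198190 (+) is in an intron of Srebf2, which encodes a regulator of sterol synthesis. The miR-140 hairpin at chr8:107551244-107551313 (+) overlaps an exon of a Wwp2 transcript. The miR-181a-1 hairpin at chr1:137966455-137966541 (+) is in an intron of the processed transcript Gm4258, and the miR-27a hairpin lies at chr8:84208672-84208758 (+) with no other annotated gene around it on its strand.

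Both arms were found in RefSeq for 81 hairpins, and the arms differed in base composition. The star strand was the 3p arm in 58 of these hairpins and the 5p arm in 23. It began with C in 34 hairpins, with A in 21, with U in 15 and with G in 11. The unstarred arm began with U in 52, with A in 16, with C in 8 and with G in 5. In the first 4 bases the star strand held fewer A or U than the unstarred arm in 36 hairpins, the same number in 23 and more in 22. The median GC content was 50% for star strands and 43.5% for unstarred arms, and the star strand had the higher GC in 51 hairpins. Of the 14 hairpins whose median star share over the libraries was 10% or more, the star strand began with U in 7, against 2 of the 34 hairpins whose star share was under 1%. C was the first base in 3 of those 14 and in 17 of those 34. The star strand held fewer A or U than the unstarred arm in its first 4 bases in 5 of those 14 and in 16 of those 34. These are counts over hairpins of one genome, and members of 1 family share sequence.

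Depth differed widely between libraries, and so did the base at which reads begin. The libraries held 63386 (DN4) to 4572864 (DN3) reads assigned to mature miRNAs, and levels are given as reads per 1000000 of these (RPM). A count of 0, read as at most 3 reads, allows a level of 47.3 RPM in the DN4 library but only 0.656 RPM in DN3. The leading start was base 3 of the mature miRNA in 8 libraries, those from marrow with DN1, DN2 and both single-positive populations. It was base 2 in 3 (DN4, DP and MEF) and base 1 in DN3. Star reads began at that base less often than unstarred reads in 12 of 12 libraries, for example in 90.6% against 99.0% in DN3 and in 84.9% against 96.3% in CD8SP. A few names held much of this gap. In DN3, 36.0% of 5775.5 miR-140* reads began at base 1, and in CD8SP 3.22% of 1057 miR-150* reads began at base 3. Over star names with at least 100 reads, the median was 98.7% in DN3, against 99.7% for their unstarred arms. In CD8SP it was 94.7% against 99.8%. Star reads were also shorter on average and of higher GC in 12 of 12 libraries. The pan-blood miR-142 was at 8207.5 to 85572.9 RPM in the blood libraries and at 158.7 RPM in MEF, where the mesenchymal markers summed to 23648.5 RPM, against at most 824.1 RPM in any blood library. The myeloid marker miR-223 stood at 17608.6 RPM in DN1 and 10296.0 RPM in LMPP. In DP, miR-181a alone was at 553103.7 RPM, which bears on every RPM value there.

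Star names held 195471.3 of 26010588 mature reads, or 0.752%, over the 12 libraries, with the reads of a sequence that carries several names divided evenly between these. The share was 0.823% in LSK, 0.944% in MPP, 1.05% in LMPP and 0.711% in ProB. In the thymus it was 0.452% in DN1, 0.745% in DN2 and 1.19% in DN3. DN4 had 2.83% and DP had 1.01%, while CD4SP had 0.451% and CD8SP had 0.501%. The MEF library had 1.43%. The mean of the 12 shares was 1.01%. The share was highest in DN4, the shallowest library, where its interval was 2.70% to 2.96%, and lowest in CD4SP and DN1. The 4 libraries whose reads begin at base 1 or 2 had 4 of the 5 highest shares, with LMPP the other one. Read start and population cannot be told apart here, because no population was sequenced with both starts.

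**Figure D1:**
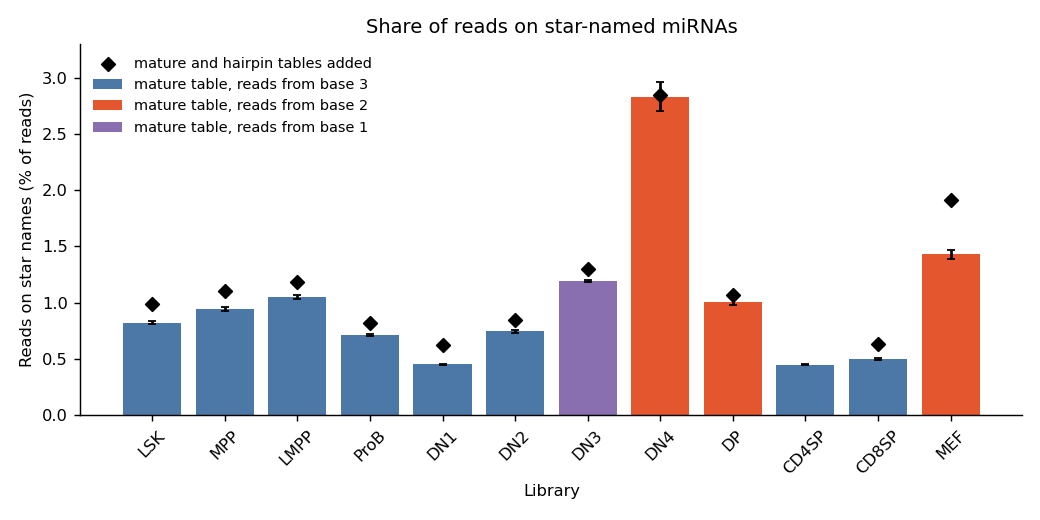
Share of reads on star names in each library (vertical axis, percent). Bars give the mature table with exact 95% intervals, coloured by the base at which most reads begin, and diamonds give the mature and hairpin tables added for the 11 libraries with a hairpin table. DN4 stands highest at 2.83%, and DN1, CD4SP and CD8SP lie between 0.451% and 0.501%.

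Few of the star strands were abundant. Of the 98 names, 36 were seen in all 12 libraries, 7 in 1 library only, and 41 had under 100 reads in all. At least 100 RPM with 10 reads was reached in some library by 40 names, and in all 12 libraries at least 100 RPM was held by 2, miR-17* and miR-378*. miR-17* alone made up 26.7% of all star reads, followed by miR-106b* with 6.67%, miR-181a-1* with 6.52%, miR-21* with 5.73% and miR-378* with 4.86%. The DN3 library alone gave 23810 of the 52257 miR-17* reads. By the mean level over the libraries, in which each counts equally, the order was miR-17* (2904.7 RPM), miR-21* (880.2 RPM), miR-181a-1* (684.6 RPM), miR-378* (555.0 RPM) and miR-106b* (548.8 RPM). miR-17* led in 10 libraries, miR-181a-1* in CD4SP with 15.3% of star reads, and miR-21* in MEF with 35.2%.

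miR-17* comes from the miR-17 cluster, which is known for promoting the survival of lymphocyte progenitors. It was at 2144.4 RPM in LSK, 2294.5 in MPP, 2622.5 in LMPP and 1409.6 in ProB. Along the thymic stages it was at 729.3 RPM in DN1, 1867.5 in DN2 and 5206.8 in DN3. DN4 had 13094.4 RPM and DP 3342.4 RPM, while CD4SP had 470.5 RPM and CD8SP 696.1 RPM, and MEF had 978.3 RPM. The level was thus highest in DN4 and lowest in the mature T cell libraries and DN1. The 8 star names of the miR-17 cluster and its paralogs together held 45.9% of star reads, from 8.47% in MEF to 71.3% in DN4.

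miR-181a is known for setting the sensitivity of the T cell receptor in thymocytes. Its star strand miR-181a-1* was at 95.4 RPM in LSK, 199.3 in MPP, 471.8 in LMPP and 247.7 in ProB. In the thymus it was at 135.6 RPM in DN1, 486.7 in DN2 and 876.6 in DN3. DN4 had 1861.6 RPM and DP 2825.1 RPM, while CD4SP had 689.1 RPM and CD8SP 261.6 RPM, and MEF had 64.8 RPM. It was highest in DP, as was unstarred miR-181a. The star strand was 0.508% of the pair in DP and 2.47% in ProB, the lowest and the highest of the 12 libraries. The strand of the second copy, miR-181a-2*, was at most 0.12% of its pair in the mature tables, in LSK, but 2.79% there with the hairpin table added.

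miR-21*, whose unstarred arm is induced in activated T cells and in fibroblasts, was at 981.6 RPM in LSK, 1094.4 in MPP and 802.7 in LMPP. It was at 405.7 RPM in ProB, 279.4 in DN1, 343.6 in DN2 and 373.7 in DN3. DN4 had 1057.0 RPM and DP 97.4 RPM, while CD4SP had 27.6 RPM and CD8SP 62.4 RPM. MEF stood above all of these with 5037.4 RPM. miR-150, an miRNA of mature lymphocytes, had a star strand at 397.3 RPM in CD8SP, 155.4 in CD4SP and 169.4 in DN1, and at 7.44 to 94.7 RPM in the other blood libraries. No miR-150* read was found in MEF, which allows up to 9.72 RPM. miR-15b*, from a hairpin in an intron of Smc4, was highest in CD4SP with 633.0 RPM and next in DN2 with 476.3 RPM, against 78.9 to 285.3 RPM in the other blood libraries.

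**Figure D2:**
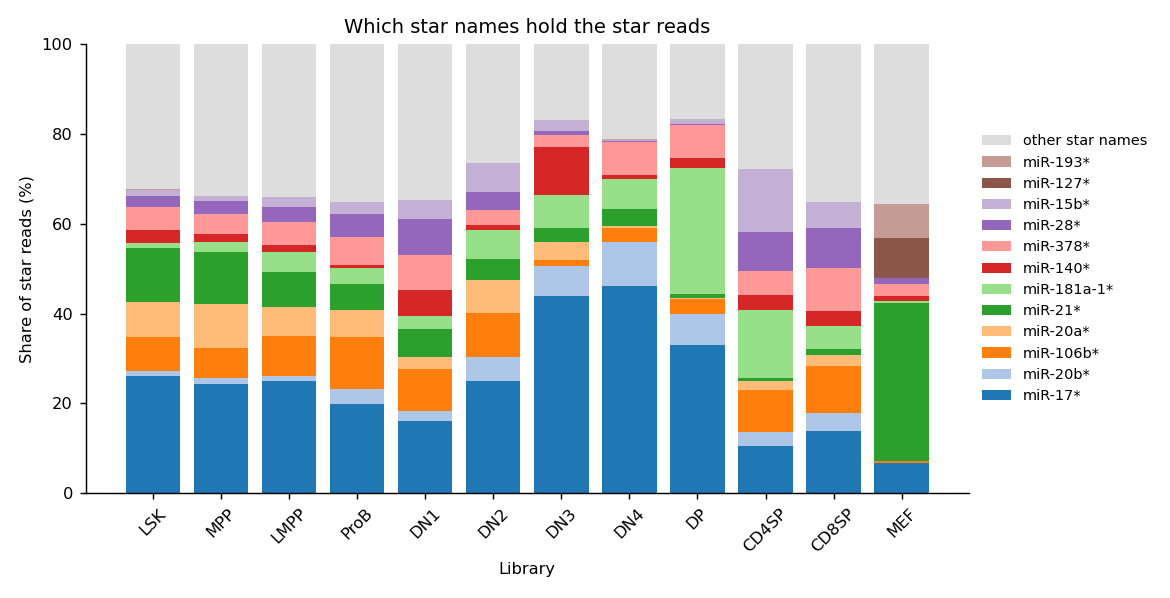
Composition of the star reads in each library (vertical axis, percent of star reads), for 12 star names and the sum of the others. miR-17* is the largest part in 10 libraries, with 46.2% in DN4, miR-181a-1* reaches 28% in DP, and miR-21* holds 35.2% in MEF.

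The star reads can be summed over families chosen with earlier results of these data known. Beside the miR-17 group, the 2 miR-181 star names held 6.60% of star reads over the libraries, with 28% in DP and 0.453% in MEF. The mature lymphocyte and activation list (5 star names, led by miR-21* and miR-150*) held 7.30%, and the miR-15 and miR-16 list (3 names) held 4.15%, with 14.1% in CD4SP. The let-7 list (8 names) held 3.45%, the progenitor list (7 names, led by miR-322* and miR-10a*) 3.38%, the list of miR-27 and its cluster partners (4 names) 2.84%, and the miR-30 list (5 names) 2.15%. The progenitor star names were 9.84% of star reads in LSK and 10.2% in MPP, and 0.674% in DN3. The miR-29 list (3 names) held 0.747%, miR-26 and miR-103 (1 name) 0.323%, and the Sfmbt2 repeated cluster (6 names) 0.158%. The miR-183 cluster (1 name, miR-183*) held 0.0169%. The imprinted Dlk1-Dio3 locus (8 names) held 0.319% in all and 12.7% in MEF, and markers of other cell types (9 names) held 0.296% in all and 7.27% in MEF.

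The share of the star strand in its own hairpin, star reads over star plus unstarred reads, does not depend on how libraries are scaled to each other. An unstarred arm was found for 97 of the 98 star names, under the same name without the asterisk for 86, while 10 star names of hairpin copies were set against the unstarred name that the copies share. miR-1982* had none. Some of the 86 were also set against an unstarred sequence that lies on 2 hairpin copies, among them miR-16*, miR-29b*, let-7f* and miR-7a*. Their shares are thus not those of a single hairpin. With reads summed over the libraries, 94 hairpins had at least 30 reads on both arms together, and their median star share was 1.70%. The star strand was under 1% in 42 hairpins, 1% to 10% in 32, 10% to 50% in 16 and above 50% in 4. In 49 hairpins the arms are named 5p and 3p, among them miR-125b, whose 5p reads are also set beside miR-125b*. The arm with fewer reads held a median of 13.2% in these 49, against a median of 1.60% for the lesser arm of the star hairpins. The naming itself rests on which arm was rare when first sequenced, so this contrast follows in part from the names.

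The 4 hairpins in which the star strand had more reads over all libraries were miR-136* (98.4% of 63 reads), miR-193* (90.2% of 510), miR-33* (87.7% of 3462) and miR-145* (69.6% of 138). Of these, miR-33* was the one seen at depth in many libraries. No read of unstarred miR-33 was found in 7 of the 8 libraries whose reads begin at base 3, with 197 (LMPP) to 394 (MPP) miR-33* reads in them, and CD4SP had 404 miR-33* reads and 1 miR-33 read. In DN3, whose reads begin at base 1, there were 761 miR-33* and 425 miR-33 reads, a star share of 64.2% (61.4% to 66.9%). Of the miR-33 reads of DN3, 48% reached base 20, against 65.6% of the miR-33* reads. Among the reads of DN3 that reached base 20, the star share was 71.0%. The shortest sequence in the tables had 18 bases, so a read that begins at base 3 must reach base 20 to be listed. The 71.0% in DN3 stood beside 99.8% to 100% in the base-3 libraries. Why those libraries had almost no miR-33 reads was not tested. miR-193* was at 1078.8 RPM in MEF and at most 47.3 RPM elsewhere, and it had 333 reads in MEF, against 13 reads of miR-193, a share of 96.2%. Within single libraries, 2 to 6 star strands led their hairpin. miR-33* and miR-378* led in each of the 8 base-3 libraries, and miR-193* also in MPP and DN1. miR-455* led in DN1, DN2 and CD8SP, with intervals across 50%. In DN3 the leaders were miR-33* and miR-140*. miR-17* and miR-27a* led in DN4, DP and MEF, with the miR-27a* interval in DP across 50%, and miR-20b* led in DN4 and DP. miR-136*, miR-145*, miR-193* and miR-30c-2* also led in MEF, where miR-30c-2* had 34 reads and miR-30c had 10.

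At the low end, several abundant hairpins had few star reads in most libraries. Among hairpins with at least 100 reads in at least 6 libraries, the median share was 0% for miR-22* and miR-24-2*, 0.000551% for miR-24-1*, 0.00479% for miR-16*, 0.00668% for let-7g*, 0.00992% for let-7c-1*, 0.0107% for miR-29b* and 0.0243% for let-7f*. Single libraries stood far above these medians. miR-22* had 72 reads and a share of 1.92% (1.51% to 2.42%) in DN3, against at most 0.00461% in the other libraries. miR-16* held 2.58% in DN4 on 6 reads, 1.75% in DP on 26 reads and 1.72% in MEF on 1 read, against at most 0.00796% in the base-3 libraries. These values are from the mature tables. With the hairpin tables added, the median over the base-3 libraries without CD4SP was 0.0132% for miR-24-1*, 0.0117% for let-7g* and 0.0385% for miR-29b*. In the mature tables their base-3 medians were 0.000551%, 0.00453% and 0.0141%. Those of miR-16*, let-7c-1* and let-7f* moved less, from 0.00334% to 0.00421%, from 0.0118% to 0.0124% and from 0.0184% to 0.0207%. The highest medians in the same ranking below miR-33* and miR-378* belonged to miR-872*, miR-101a*, miR-28*, miR-140*, miR-425* and miR-106b*, with medians between 20.5% and 32.7%. miR-28* held 18.6% (ProB) to 27.3% (LMPP) of its hairpin in the 8 base-3 libraries. miR-106b* held 17.4% (CD8SP) to 22.6% (LMPP) there. Neighbouring populations in this order often had intervals that overlap, as for miR-28* at 25.4% (23.5% to 27.3%) in MPP and 26.0% (24.8% to 27.2%) in DN1.

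Some hairpins showed the opposite arm in the lead in DN4, DP and MEF, the 3 libraries whose reads begin at base 2. miR-17* was 78.7% (76.1% to 81.1%) of its hairpin in DN4, 81.6% (79.8% to 83.2%) in DP and 86.5% (82.5% to 89.9%) in MEF, against 5.07% (ProB) to 9.33% (LSK) in the 8 base-3 libraries. DN3 lay between, with 23.0%. Unstarred miR-17 was low in those 3 libraries, with 3552.3 RPM in DN4, 755.6 in DP and 153.3 in MEF, against 6410.0 (CD4SP) to 26375.8 RPM (ProB) in the base-3 libraries. The level of miR-17* overlapped between both kinds of library.

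miR-20b*, which has the same seed as miR-17*, held 71.1% (65.1% to 76.8%) in DN4 and 66.8% (62.7% to 70.8%) in DP, against 1.98% to 3.37% in the base-3 libraries and 4.46% in DN3. MEF had no read of either arm of miR-20b in the mature table. miR-27a*, the 5p arm of a hairpin of the miR-23a cluster, held 71.9% (53.3% to 86.3%) in DN4, 51.2% (42.0% to 60.3%) in DP and 76.4% (71.8% to 80.5%) in MEF. It held 1.28% (CD4SP) to 7.98% (LMPP) in the base-3 libraries and 1.55% in DN3. miR-21* held 33.8% in DN4, 15.4% in DP and 42.0% in MEF, against 0.0835% (CD4SP) to 1.08% (MPP) in the base-3 libraries and 0.826% in DN3. Unstarred miR-21 was at 2066.7 RPM in DN4, 536.4 in DP and 6968.2 in MEF, against 26775.6 to 159117.8 RPM in the base-3 libraries. In each of these hairpins the groups did not overlap. This was not particular to them. The base-2 shares of let-7d*, miR-15b*, miR-29a* and miR-93*, among others, also lay wholly above their base-3 shares. Those of miR-425* and miR-7a* lay wholly below. The number of hairpins with such a gap was not counted, so nothing particular to the hairpins named here is read from it. miR-106b* held 32.9% to 41.3% in the base-2 libraries with at least 30 reads, against 17.4% to 22.6% in the base-3 libraries. miR-30c-1* held 36.3% to 45.2% in the base-2 libraries, against 0.852% to 2.17% in the base-3 libraries. For others the groups did overlap, such as miR-322* and miR-181a-1*.

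The shift did not go one way in all hairpins. miR-28* held 10.1% in DP and 12.9% in MEF, and 9.72% in DN3, all below the base-3 libraries. miR-425*, from a hairpin in the same lincRNA as miR-191, held 1.53% in DN4 and at most 4.90% in DP and MEF, against 20.2% to 35.7% in the base-3 libraries and 1.99% in DN3. miR-7a* was at 0% in DN4 and at most 0.113% in the other base-2 libraries, against 4.38% to 12.7% in the base-3 libraries and 7.48% in DN3. miR-181a-1* stayed within the range of the other libraries in DN4 and MEF, with 0.841% and 0.985%, and DP was the lowest. Over the 37 hairpins with at least 30 reads in all 12 libraries, the median star share was 1.5% in DN4, 0.730% in DP and 1.37% in MEF, and 0.282% (CD4SP) to 0.783% (MPP) in the base-3 libraries. DN3 had 0.508%. In DN4, DP and MEF, reads of miR-17* and miR-17 that reached base 20 gave shares of 78.1%, 81.3% and 86.6%. Whether the read start, the library preparation or the cells set these arms apart was not tested.

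**Figure D3:**
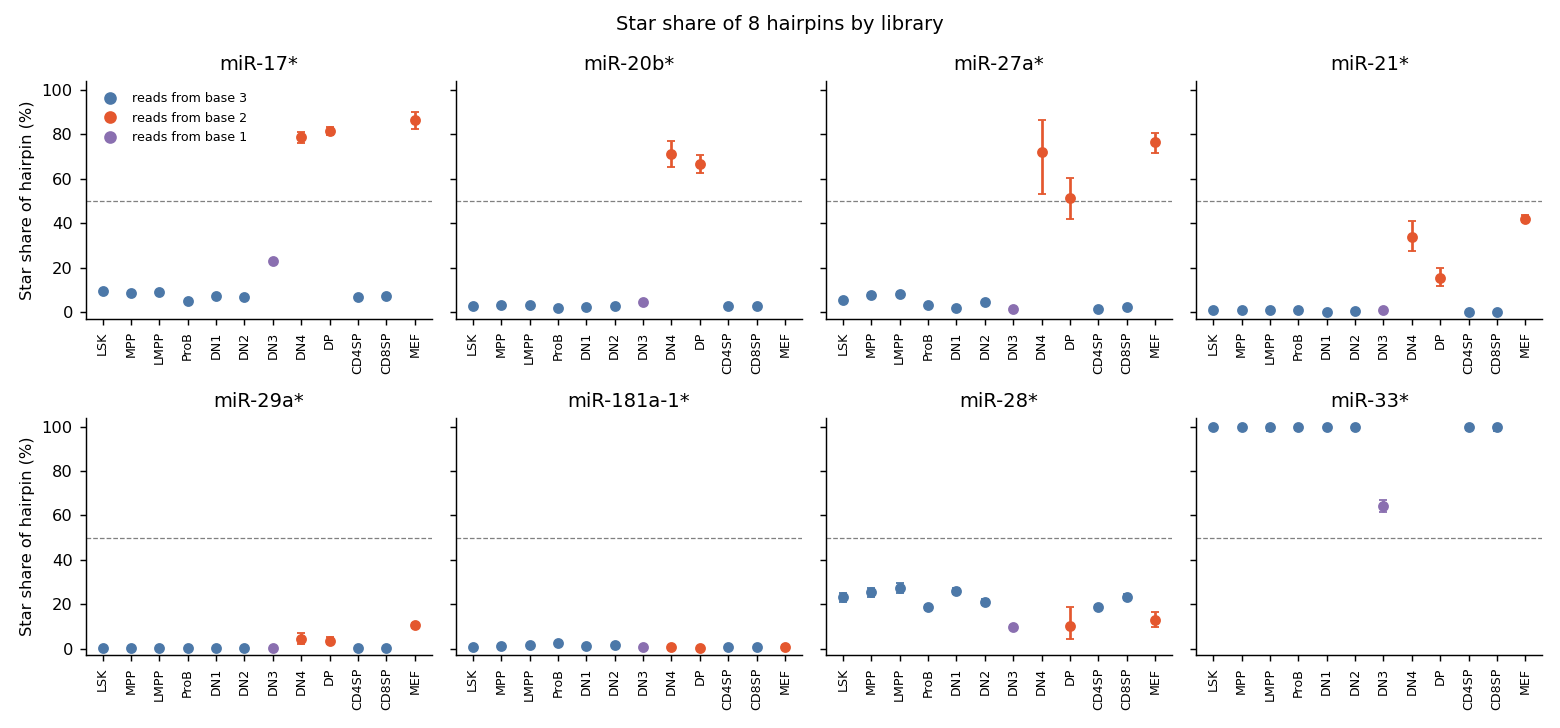
Star share of 8 hairpins (vertical axis, percent of star plus unstarred reads) by library, with exact 95% intervals and colours for the base at which most reads begin. A library is left out where both arms together had under 30 reads. miR-17*, miR-20b* and miR-27a* lie above the 50% line in base-2 libraries (DP for miR-27a* has an interval across it) and lower elsewhere, with DN3 at 23.0% for miR-17*, while miR-33* is at 99.8% to 100% in the base-3 libraries and 64.2% in DN3.

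The share of several hairpins also turned on which table was used. The authors assigned sequences first to mature miRNAs and then assigned the remaining ones to whole hairpins, and the hairpin-table sequences were placed on an arm here by their match to the hairpin. miR-140* held 7.93% (ProB) to 37.0% (LSK) of its hairpin in the base-3 libraries in the mature table, and 67.0% to 82.7% with both tables added. In DN3, miR-140* already held 73.2% in the mature table and 82.9% with both. miR-378* did the reverse, with 53.4% (CD8SP) to 67.7% (LMPP) in the mature tables of the base-3 libraries and 10.7% to 16.7% with both tables, so that the star strand led in one count and not in the other. miR-455* held 35.3% to 60% in the mature tables and 15.3% to 26.4% with both. miR-92a* held 2.62% to 10.7% in the mature tables of the base-3 libraries and 0.0714% to 0.271% with both, and miR-26b* 0.422% to 2.31% in the mature tables and 0.106% to 0.369% with both. The median over the base-3 libraries was 32.7% in the mature tables and 17.5% with both for miR-872*, and 30.4% in the mature tables and 12.8% with both for miR-101a*. miR-27a* in DP was at 51.2% in the mature table and 47.5% with both, so that it no longer led there. miR-17*, miR-28* and miR-33* moved little, with 5.48% to 9.50%, 19.4% to 28.7% and 100% in base-3 libraries with both tables. CD4SP is left out of every value of single libraries with both tables. Values with both tables that pool the 12 libraries keep its mature reads.

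**Figure D4:**
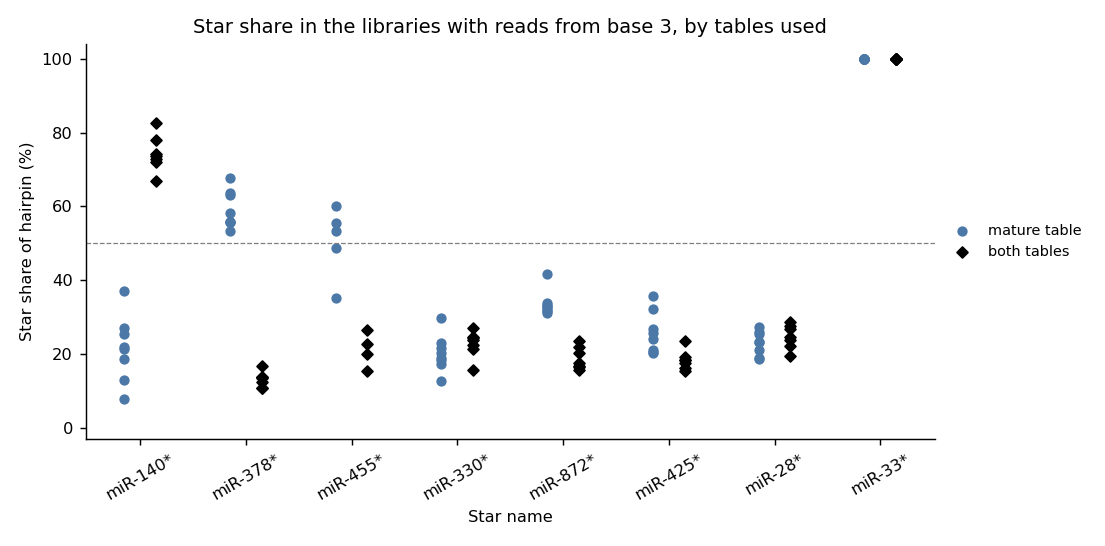
Star share of 8 hairpins (vertical axis, percent) in the libraries whose reads begin at base 3, from the mature table (circles) and from the mature and hairpin tables added (diamonds, without CD4SP). Each point is 1 library with at least 30 reads on both arms. miR-140* lies at 7.93% to 37.0% in the mature table and above the 50% line with both, and miR-378* and miR-455* lie higher in the mature table.

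The arm shares were compared between pairs of libraries, and a hairpin was called when its share intervals did not overlap and the odds of its arms differed by more than 2-fold. Between libraries with the same read start few hairpins were called. LMPP over MPP had 0 of 71 star hairpins, against 0% of all 97 hairpins with both arms named. MPP over LSK had 3 of 73 (background 3%), CD8SP over CD4SP 3 of 71 (6.19%), DP over DN4 3 of 44 (7.02%), DN2 over DN1 8 of 71 (8%), DN1 over LMPP 10 of 69 (13.8%), ProB over LMPP 11 of 66 (17.8%), CD4SP over DN2 14 of 70 (17.9%) and MEF over DP 10 of 42 (20.7%). Between libraries with different read starts the numbers were 34 of 72 in DN3 over DN2 (48.5%), 23 of 46 in DN4 over DN3 (45.8%), 26 of 50 in CD4SP over DP (50.8%) and 30 of 50 in CD8SP over DP (57.8%). The star hairpins make up most of these backgrounds, so nothing particular to them is read from the counts.

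**Figure D5:**
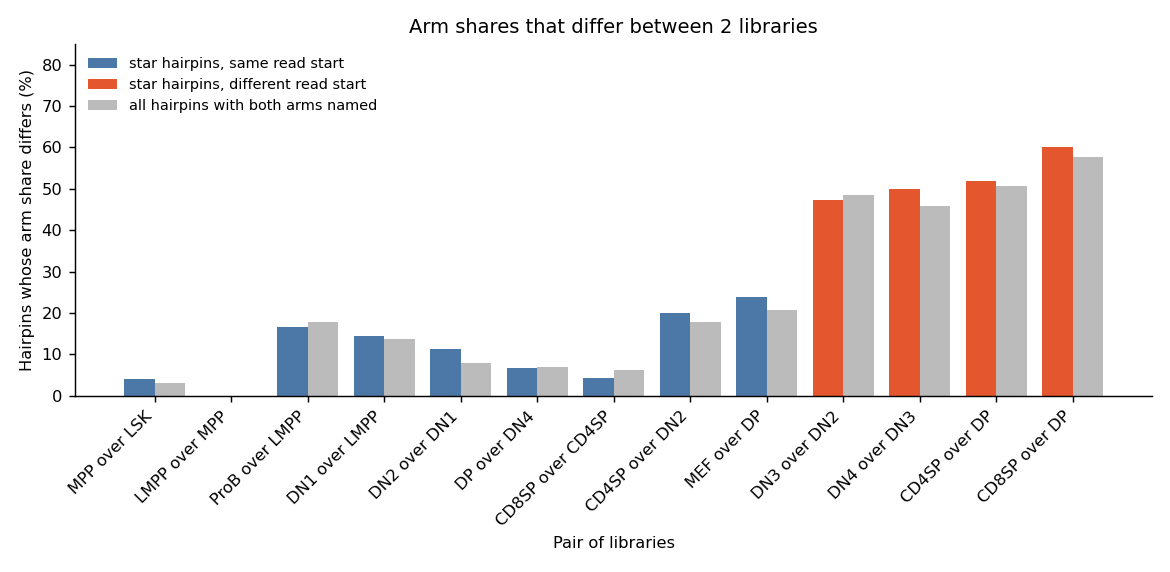
Hairpins whose arm share was called different between 2 libraries (vertical axis, percent), for star hairpins (blue where both libraries have the same read start, red where it differs) and for all hairpins with both arms named (grey). Pairs with the same read start reach 20.7% of all hairpins, and pairs with different starts lie at 45.8% to 57.8%.

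The backgrounds above count calls in either direction, because hairpins named 5p and 3p, apart from miR-125b, have no star strand and so no direction of the star share. Between libraries with the same read start, the star share was lower in 3 of the 3 hairpins called in MPP over LSK and in 3 of the 3 called in DP over DN4. It was higher in 2 of 3 in CD8SP over CD4SP and in 9 of 10 in MEF over DP. In CD4SP over DN2 the star share was lower in 14 of 14 called hairpins. miR-21* held 0.0835% in CD4SP and 0.304% in DN2, miR-181a-1* 0.698% in CD4SP and 1.87% in DN2, and miR-27a* 1.28% in CD4SP and 4.53% in DN2. In DN1 over LMPP it was lower in 9 of 10, among them miR-21* with 0.175% in DN1 and 0.907% in LMPP, miR-27a* with 1.92% in DN1 and 7.98% in LMPP, and miR-27b* with 0.855% in DN1 and 3.86% in LMPP. let-7c-2* was the one higher, and its reads cannot be told from those of let-7a*, which has the same sequence. In DN2 over DN1 it was higher in 7 of 8, with miR-27a* at 4.53% in DN2 and 1.92% in DN1, miR-26b* at 2.31% in DN2 and 0.495% in DN1 (0.369% in DN2 and 0.127% in DN1 with both tables), and miR-140* the one lower. The miR-140* share was 72.0% in DN2 and 73.6% in DN1 with both tables, and was then not called. In ProB over LMPP the share was lower in 10 of 11, with miR-7a* at 4.38% in ProB and 12.2% in LMPP, miR-27a* at 3.34% in ProB and 7.98% in LMPP, and miR-92a* the one higher at 10.7% in ProB and 4.11% in LMPP (0.267% in ProB and 0.111% in LMPP with both tables). With both tables the numbers called were 14 in DN1 over LMPP (13 lower), 11 in DN2 over DN1 (10 higher) and 11 in ProB over LMPP (10 lower). Over all star hairpins compared in the mature tables, the median log2 ratio of the arm odds was -0.583 in DN1 over LMPP and 0.445 in DN2 over DN1. It was -0.208 in ProB over LMPP, -0.182 in CD4SP over DN2 and -0.529 in DP over DN4. The median was 0.314 in MPP over LSK, 0.0474 in CD8SP over CD4SP and 0.990 in MEF over DP. DN1 thus enters as the low library in both of its pairs, and these 2 comparisons share it. The level of miR-223 in DN1, 17608.6 RPM, stood beside 869.3 RPM in DN2, and markers of other cell types also differed between DN1 and LMPP. The 3 erythroid markers summed to 835.3 RPM in DN1 and 4654.7 RPM in LMPP, and the liver marker was at 5.86 RPM in DN1 and 4312.6 RPM in LMPP. The epithelial markers went the other way, with 779.1 RPM in DN1 and 327.8 RPM in LMPP. The 2 names of miR-126, listed as endothelial, summed to 1731.6 RPM in DN1 and 23440.1 RPM in LMPP. They also summed to 11198.9 RPM in LSK and 21448.3 RPM in MPP, and are not read here as a sign of endothelial cells. The part of other cells in the DN1 shares was not tested.

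Levels of single star names were compared by the ratio of RPM, and a call needed an interval wholly past 2-fold, with 100 RPM and 10 reads or more where the level was higher. Among the marrow progenitors almost nothing was called. MPP over LSK had 0 of 18 star names, against 2.14% of all names called in either direction. LMPP over MPP had 1 of 19, higher, against 13.5% of all names higher and 1.29% lower. It was miR-181a-1*, with 471.8 RPM in LMPP and 199.3 RPM in MPP, a ratio of 2.37 (2.06 to 2.72). This call was lost with both tables added and with size factors (DESeq2) or TMM factors (edgeR). ProB over LMPP had 1 of 20 higher and 1 lower, against 7.64% and 30.6% of all names (38.2% in either direction). Size factors gave 2 higher and 1 lower, and TMM factors 3 higher and none lower. miR-455*, whose hairpin is known in cartilage, was at 120.1 RPM in ProB and 8.17 RPM in LMPP, 14.7-fold higher (7.37 to 34.4), and its unstarred arm was 15.5-fold higher. miR-140* was at 50.1 RPM in ProB and 175.7 RPM in LMPP, and miR-140 did not differ by the rule, with a ratio of 0.925. With both tables miR-140* was at 1105.6 RPM in ProB and 1964.0 RPM in LMPP, and was not called.

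At entry to the thymus most star names called were lower. DN1 over LMPP had 1 of 20 higher and 11 lower, against 9.49% and 38.0% of all names. The one higher was miR-150*, with 169.4 RPM in DN1 and 20.4 RPM in LMPP, 8.29-fold (5.32 to 13.7), and miR-150 was 18.2-fold higher. Among the lower ones, miR-322*, from the miR-322 and miR-503 cluster, was at 76.2 RPM in DN1 and 557.6 RPM in LMPP, 7.32-fold lower, and miR-20a* at 126.3 RPM in DN1 and 692.4 RPM in LMPP, 5.48-fold lower. miR-21* was 2.87-fold lower in DN1, while miR-21 was 1.82-fold higher. miR-27a* was 3.31-fold lower, while miR-27a had a ratio of 1.34. With size factors 6 of the 11 lower calls and the higher one were kept, and with TMM factors 5 and the higher one. The calls of miR-21* and miR-27a* were lost under both, and those of miR-322* and miR-20a* were kept. The erythroid, endothelial and liver markers were lower in DN1 than in LMPP, as given above, and so were the mesenchymal, muscle and neural markers. The myeloid, epithelial and pan-blood markers went the other way and were higher in DN1. The part of other cells in the star calls was not tested.

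DN2 over DN1 had 8 of 19 higher and 2 lower, against 20.9% and 17.3% of all names (38.1% in either direction), and all 10 calls held under the 3 other scalings. miR-20a* was at 539.8 RPM in DN2 and 126.3 RPM in DN1, 4.28-fold higher (3.85 to 4.76), miR-20b* was 3.80-fold and miR-181a-1* 3.59-fold higher, and miR-92a* 5.11-fold. miR-150* was at 29.0 RPM in DN2 and 169.4 RPM in DN1, 5.83-fold lower, and miR-140* was 3.36-fold lower. With both tables the other 9 calls were kept and miR-140* was 1.52-fold lower and not called. Of the miR-17 cluster and paralogs, 5 of the 6 star names tested were higher and none lower.

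DN3 over DN2, DN4 over DN3, CD4SP over DP and CD8SP over DP join libraries with different read starts. DN3 over DN2 had 3 of 19 star names higher and 6 lower (31.9% and 14.1% of all names). miR-140* was at 1263.0 RPM in DN3 and 77.2 RPM in DN2, 16.4-fold higher (14.1 to 19.0), while miR-140 had a ratio of 0.885. This rests on the mature table, since with both tables miR-140* was at 2322.6 RPM in DN3 and 1243.6 RPM in DN2, a ratio of 1.87 (1.80 to 1.94) that was not called. DN4 over DN3 had 12 of 22 higher and 2 lower (36.4% and 27.7%), or 6 higher and 5 lower with either size or TMM factors, and 10 higher and 4 lower with the 3 most abundant miRNAs left out of the total. In 7 of the 14 the unstarred arm was called in the opposite direction, as for miR-27a*, 8.83-fold higher in DN4, whose unstarred arm had a ratio of 0.0545. CD4SP over DP had 5 of 17 higher and 9 lower (45.1% and 33.8%). CD8SP over DP had 5 of 18 higher and 6 lower (50% and 28.3%, together 78.3%), or 5 higher and 11 lower with the 3 most abundant left out. miR-28* was at 384.4 RPM in CD4SP and 444.7 RPM in CD8SP, against 15.3 RPM in DP, and miR-7a* at 117.4 RPM in CD4SP and 140.2 RPM in CD8SP, against 1 read in DP, ratios of 61.5 (11.0 to 2433.8) and 73.5 (13.1 to 2908.9). miR-17* was 7.10-fold lower in CD4SP and 4.80-fold lower in CD8SP than in DP, while miR-17 was 8.48-fold and 11.8-fold higher. Both comparisons share the DP library.

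DP over DN4, both with reads from base 2, had 0 of 18 higher and 9 lower, against 0.709% and 52.5% of all names (53.2% in either direction). miR-92a* was at 154.6 RPM in DP and 1719.6 RPM in DN4, 11.1-fold lower (8.27 to 15), and miR-21* was 10.9-fold lower. These 2 were also called with size and TMM factors, under which the ratios of miR-106b* and miR-378* turned to above 1, and that of miR-93* too with TMM factors. The splits were then 1 higher and 2 lower with size factors and 2 higher and 2 lower with TMM factors, and 1 higher and 3 lower with the 3 most abundant left out. The TMM factors moved all names of this pair by 1.79 on the log2 scale.

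Between the mature T cell libraries, CD8SP over CD4SP had 2 of 15 higher and 2 lower (11.4% and 3.79% of all names), and the 4 calls held under the 3 other scalings. miR-27a* was at 124.0 RPM in CD8SP and 14.0 RPM in CD4SP, 8.86-fold higher (6.75 to 11.8), with miR-27a 4.81-fold higher. miR-150* was at 397.3 RPM in CD8SP and 155.4 RPM in CD4SP, 2.56-fold higher, with miR-150 2.15-fold higher. miR-181a-1* was at 261.6 RPM in CD8SP and 689.1 RPM in CD4SP, 2.63-fold lower, and miR-15b* 2.22-fold lower. CD4SP over DN2 had 1 of 20 higher and 10 lower (14.1% and 34.5%), or 4 higher and 7 lower with size factors and 3 higher and 7 lower with TMM factors. miR-21* was at 27.6 RPM in CD4SP and 343.6 RPM in DN2, 12.5-fold lower (10.3 to 15.2), and miR-92a* 12.3-fold and miR-27a* 9.03-fold lower. miR-150* was the one higher, 5.35-fold.

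MEF over DP, both with reads from base 2, had 16 of 27 star names higher and 7 lower, against 51% and 23% of all names (74% in either direction). Under TMM factors the split was 13 higher and 12 lower, and 15 higher and 14 lower with the 3 most abundant left out. Star strands of the Dlk1-Dio3 locus, whose miRNAs are expressed from the maternal chromosome in embryonic tissue, were found in MEF. miR-127* was at 1279.6 RPM in MEF and had no read in DP, at least 223.5-fold higher against the floor of 3 reads. miR-136* was at 178.2 RPM in MEF, at least 31.1-fold higher, and miR-300* and miR-431* at least 27.7-fold and 25.5-fold, with the call of miR-431* lost under TMM factors. Of the mesenchymal miRNAs, miR-199b* was at 531.3 RPM, miR-145* at 301.3 RPM and miR-214* at 200.9 RPM in MEF, with no read in DP, at least 92.8-fold, 52.6-fold and 35.1-fold higher. miR-21* was 51.7-fold higher (39.2 to 69.8) with 5037.4 RPM in MEF and 97.4 RPM in DP, while miR-21 was 13.0-fold higher. miR-29a*, whose family represses collagen genes, was at 890.9 RPM in MEF and 42.0 RPM in DP, 21.2-fold higher. miR-181a-1* was at 64.8 RPM in MEF and 2825.1 RPM in DP, 43.6-fold lower (28.1 to 71.6), and miR-20b* had no read in MEF, at least 71.7-fold lower. In 18 of the 23 called names the unstarred arm was called in the same direction.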

How the data were processed

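Small RNA of 19 to 24 nt was cut from gels and ligated to adaptors that need a 5′ phosphate and a 3′ hydroxyl, per the labels' protocols. Per the file headers, each deposited table lists sequences with an assigned miRNA, a position and a raw read count, with no normalization by the authors. For the aligner, trimming, miRNA release and mismatches, the methods were not given in the sources used here. The 2 tables of CD8SP were told apart by the names they hold, and no hairpin table of CD4SP was used here.

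Counts were summed per name, with shared sequences split equally, and scaled to RPM of mature reads. Hairpin-table sequences were placed on an arm by an overlap of at least 12 bases, using RefSeq and GENCODE M21 hairpins of GRCm38; 7.14% of hairpin-table reads were not placed. Shares have exact Clopper-Pearson intervals and ratios exact conditional binomial intervals, at 95%. With 1 library per population no test was made. Arm shares were described from 30 reads on both arms.

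Named star miRNAs were the 20 of highest mean RPM, the 10 highest and 10 lowest by median share with those crossing 50%, up to 4 called ratios per pair and direction, and 2 per list; others in the text (let-7a*, let-7b*, let-7c-2*, miR-193*, miR-214*, miR-300*, miR-431* and miR-1982*) were chosen after their values were seen. The members and lists were chosen with earlier results of these data known. Alternatives were other treatments of shared, single-read or mismatched sequences, both tables, other minimums, folds and scalings (DESeq2 1.42.0, edgeR 4.0.16, R 4.3.3), thinning and each library left out. The reads reaching base 20 and the base-3 libraries alone were added after seeing the data, as was the arm-odds rule. Python 3.11.15, numpy, scipy and pandas were used.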

Additional observations from a re-analysis of the deposited data

How the results depend on the processing

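The number of hairpins led by the star strand over all libraries, 4, was 4 or 5 under the 5 other treatments of sequences and tables, 3 with at least 100 reads and 3 in the base-3 libraries alone; they were 2 when libraries were thinned to 63386 reads and 2 to 4 with each library left out, lowest without MEF. The pooled star share of 0.752% was 0.759% with shared sequences counted in full, 0.748% with them left out, 0.729% without sequences seen once, 0.871% with both tables, 0.698% with perfect matches, 1.01% as the mean of libraries, 0.674% without star names that share a sequence with an unstarred name, and 0.631% in the base-3 libraries, a choice made after seeing the data. Leaving out 1 library gave 0.658% to 0.814%. The median library share of 0.884% was 0.887%, 0.885%, 0.859%, 1.07% and 0.837% under the first 5 of these, and the median pooled hairpin share of 1.70% was 1.81%, 1.49%, 1.20%, 1.46% and 1.48%. miR-140* turned to 71.7% with both tables and 84.6% with perfect matches, and miR-199b* to 100% without shared sequences. The cause was not tested. Pooled values with both tables, here and earlier in this paragraph, count CD4SP by its mature reads alone. Star names called between libraries, 120 over the 13 pairs, were 59 at 4-fold. The share called over all names was kept only under the main rule. Counts under the other rules and scalings, here and above, thus have no background and cannot be set against one. At 4-fold the count was 0 in LMPP over MPP, 1 in ProB over LMPP, 3 in DN1 over LMPP, 2 in DN2 over DN1, 2 in DN3 over DN2, 5 in DN4 over DN3, 2 in DP over DN4, 7 in CD8SP over DP, 1 in CD8SP over CD4SP and 5 in CD4SP over DN2. At 1.5-fold it was 1 in MPP over LSK, 2 in LMPP over MPP and 9 in ProB over LMPP. With no RPM minimum it was 2 in LMPP over MPP, 11 in ProB over LMPP, 20 in DN1 over LMPP and 20 in DN3 over DN2. With size factors it was 0 in LMPP over MPP, 7 in DN1 over LMPP and 3 in DP over DN4, with TMM factors 0, 6 and 4 in the same pairs. Leaving the top 3 names out of the totals gave 4 in DP over DN4. With both tables it was 0 in LMPP over MPP and 1 in ProB over LMPP, and with perfect matches 2 in LMPP over MPP. No paired analysis was possible because each population has 1 library and the replicate numbers only name samples. In DN4, with 63386 reads, a star strand under 47.3 RPM cannot be told from 0.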
